A study of Mus musculus with 4 samples.

Results

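The nuclear genes of the respiratory chain and of ATP synthase were followed in 4T1Br cells, a brain-seeking mouse mammary carcinoma line derived from 4T1, with and without a hairpin against Ythdf3, the messenger RNA of a cytoplasmic m6A reader protein. Members were the probe sets that the platform annotation gives a single gene symbol beginning with Nduf, Uqcr, Cox4 to Cox8 or Atp5, or the symbol Sdha, Sdhb, Sdhc or Sdhd. This rule took 98 of 41345 probe sets, which stood for 89 of 22180 named genes. A further 10 probe sets matched one of these symbols together with another gene's and were left out. The rule itself uses gene names and no measured value, and it was set with earlier results of these data known.

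Both groups came from the same line, received lentivirus and were selected with puromycin. The 2 shControl arrays carried a control hairpin, and the 2 shYTHDF3 arrays a hairpin against YTHDF3. Only a single YTHDF3 hairpin label is given. Nothing states that the 2 arrays of a group came from separate cultures, so that a p-value here covers only how far the arrays at hand differ, which may be technical. The sample titles call the line 4T1. All values are log2 expression as deposited, and a difference is the shYTHDF3 mean minus the shControl mean. Ythdf3 read 8.98 and 8.81 in shControl against 8.21 and 8.16 in shYTHDF3, and its fall (-0.71, SE 0.10, limma adjusted p = 0.0355) lay in the direction of the labels. That call was lost with dim probe sets kept (limma adjusted p = 0.0866) and with same-numbered arrays treated as pairs (limma adjusted p = 0.0758). It was also lost without any 1 of the 4 arrays, where the difference ran from -0.79 to -0.63.

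Of the mammary carcinoma markers, the keratin genes Krt8, Krt18 and Krt19 were well above background on all arrays, Cdh1 lay near it (4.37 to 4.61) and Epcam below it (3.80 to 4.05), against a background level of 4.28, the 95th percentile of probe sets for olfactory receptors, genes not expected in these cells. Krt8 and Krt18 read higher in shYTHDF3 (differences of 0.31 and 0.57) and Krt19 lower (-0.53), and none of these 3 passed (limma adjusted p = 0.151, 0.0527 and 0.0816). All 4 leukocyte markers measured were below background. Of 4 fibroblast markers, Dcn and Pdgfra fell by 2.65 and 0.61 (limma adjusted p = 0.00474 and 0.0471), and Col1a1 and Col3a1 were not called. The part of these marker shifts in the values below was not tested. In RNA from whole cultures, fewer cells of a kind and less RNA per cell cannot be told apart.

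The respiratory chain passes electrons from NADH and succinate to oxygen through complexes I to IV in the inner mitochondrial membrane and pumps protons as it does so, and ATP synthase, or complex V, uses the proton gradient to make ATP. Complex I takes electrons from NADH, complex II is also the succinate dehydrogenase of the tricarboxylic acid cycle, complex III passes electrons from ubiquinol to cytochrome c, and complex IV is cytochrome c oxidase. Most of the subunits are encoded in the nucleus. None of the 13 subunits encoded in mitochondrial DNA was found under the gene symbols searched, so they were not analysed here. Arrays measure RNA abundance, not the assembly or activity of the complexes.

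Of the 89 genes, 81 were above the background level on average and were tested. By complex these were 40 of 40 of complex I (6 core subunits, 26 accessory subunits and 8 assembly factors), 4 of 4 of complex II, 7 of 8 of complex III, 13 of 19 of complex IV and 17 of 18 of complex V. Ndufa4 and its paralog Ndufa4l2 were counted with complex IV, since the NDUFA4 protein, named as a complex I subunit, is a subunit of cytochrome c oxidase. The 8 genes below background were the complex IV isoforms Cox6a2, Cox6b2, Cox7b2, Cox8b, Cox8c and Ndufa4l2 and the pseudogenes Uqcrh-ps1 and Atp5c1-ps.

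No gene of the 5 complexes passed the test. By limma, a linear model with a spread shared across genes, 0 of 81 were called at a p under 0.05 adjusted over all genes, where 2.73% of all 13056 genes tested were called (1.28% higher and 1.45% lower). Before adjustment, limma gave p under 0.05 to 8 of the 81 on the higher side and 1 on the lower, which is 9.88% and 1.23% of them, against 12.2% higher and 10.4% lower over all genes. With an intensity trend in limma's variance model, 4 of the 81 were called, all higher (Ndufs7, Ndufa11, Ndufaf3 and Cox6a1), or 4.94%, against 10.9% of all genes called in either direction and 5.59% called higher. At 0 and 4 genes called, these shares rest on few genes, and their difference from the shares of all genes was not tested.

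The differences were small and more often positive than negative. The median over the 81 genes was 0.06, with quartiles of -0.05 and 0.15 and a full range from -0.35 to 0.52; over all genes tested the median was 0.01 and the range -2.65 to 1.91. In size, the median was 0.11 for the 81 genes and 0.15 for all genes. Only Ndufs7 (1.23% of the 81) differed by at least 0.5, against 6.17% of all genes. The members were also brighter, with array medians of 8.06 to 8.24 against 6.75 to 6.82 over all genes tested. The part of brightness in these sizes was not tested. Positive differences made up 64.2% of the 81 (52 genes) and 51.1% of all genes. The members' share was 59.3% without shControl replicate 2 and 71.6% without shControl replicate 1. Both shYTHDF3 arrays lay above both shControl arrays in 33 genes (40.7%, against 28.3% of all genes) and below both in 12 (14.8%, against 25.7%), and the groups overlapped in 36. All 81 genes were read on the same arrays and are not separate evidence, and these shares were not tested. The members' array medians had a within-group SD of 0.089, against the median difference of 0.06. The moderated standard error of a member's difference had a median of 0.10, against a median difference in size of 0.11. With 1 array left out, the median over the 81 genes ran from 0.032 without shControl replicate 2 to 0.094 without shControl replicate 1.

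**Figure D1:**
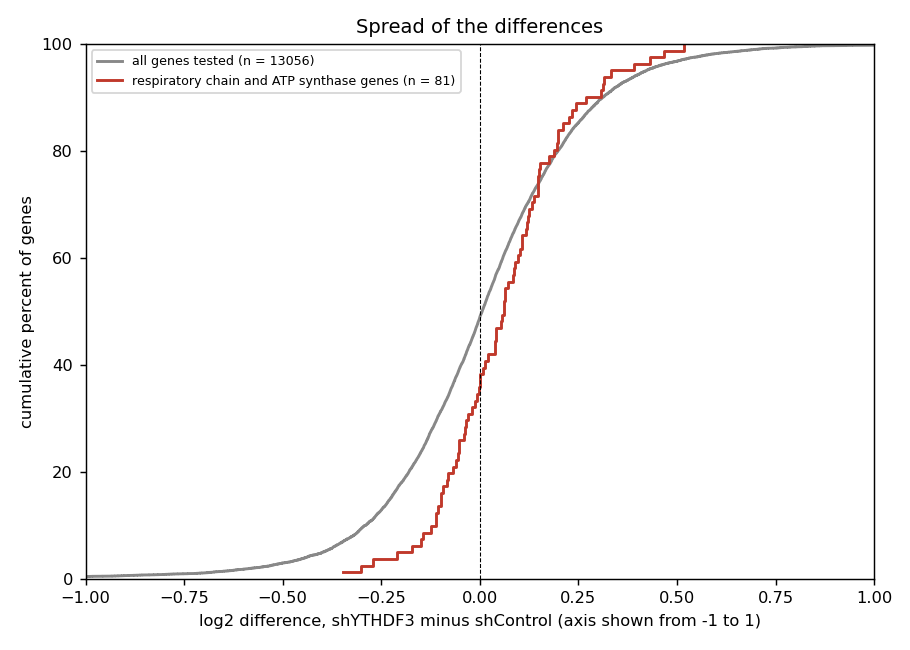
Cumulative percent of genes (vertical axis) by log2 difference, shYTHDF3 minus shControl (horizontal axis, shown from -1 to 1), for all 13056 genes tested and for the 81 respiratory chain and ATP synthase genes. The curve of the 81 genes starts at -0.35 and ends at 0.52, and 64.2% of it lies above 0, where 51.1% of all genes lie.

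**Figure D2:**
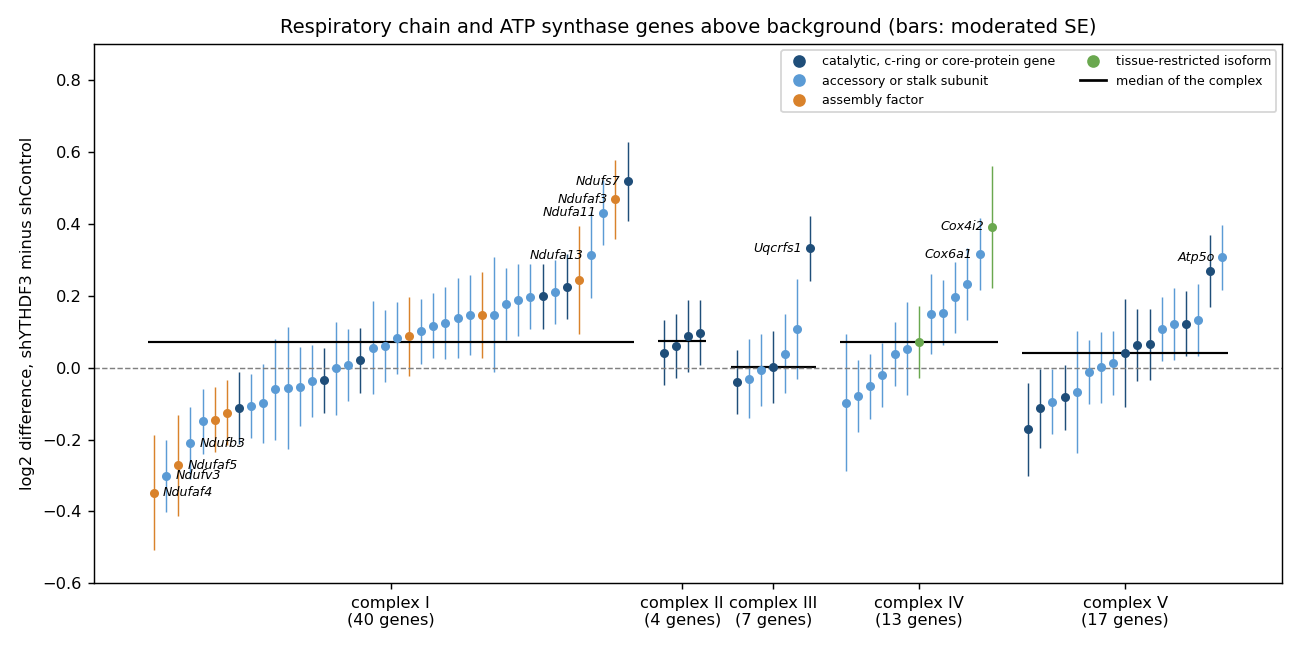
Log2 difference, shYTHDF3 minus shControl, of each of the 81 genes above background, ordered by size within each complex. Points are differences of group means with the moderated standard error, colours mark the kind of gene, and black lines are the medians of the complexes, which lie between 0.00 for complex III and 0.07 for complexes I, II and IV.

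The members are spread over 19 chromosomes, with at most 9 on any 1, and 72 of the 89 had a promoter in the RefSeq table (GRCm38.p6), which gives 250 bases before and 50 after a gene's start. Regulation of these genes by the factors NRF1, GABP (an ETS factor) and YY1 is textbook knowledge, and their motifs were searched as letters on both strands of these 300 bases. The NRF1 motif GCGCATGCG, whose neighbouring copies on the opposite strands overlap, was in 13.0% of the members' 77 promoters, against 1.75% of all 32851 promoters and 2.35% of the 21263 of protein-coding genes. The ETS motif CCGGAAG was in 24.7% (8.86% of all, 11.6% of protein-coding), and the YY1 motif AAGATGGCG in 9.09% (1.40% and 1.83%). The hypoxia motif core ACGTG was in 24.7%, against 19.6% of all and 20.9% of protein-coding. Median G+C content was 58.3% in the members' promoters and 52.7% in all. A match is a run of letters and not evidence of binding.

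The 4 promoters below are those of all genes given below with values by role or by size of difference that hold the NRF1 letters. None of these 4 genes passed the test. Each run is the 250 bases before the start on the gene's strand, 5′ to 3′, from RefSeq (GRCm38.p6), with NRF1, ETS and hypoxia matches in capitals. Ndufa11 lies at chr17:56717512-56717761 (plus strand), Ndufaf4 at chr4:24897833-24898082 (plus strand), Cox6a1 at chr5:115348959-115349208 (minus strand) and Atp5g2 at chr15:102671048-102671297 (minus strand).
Ndufa11: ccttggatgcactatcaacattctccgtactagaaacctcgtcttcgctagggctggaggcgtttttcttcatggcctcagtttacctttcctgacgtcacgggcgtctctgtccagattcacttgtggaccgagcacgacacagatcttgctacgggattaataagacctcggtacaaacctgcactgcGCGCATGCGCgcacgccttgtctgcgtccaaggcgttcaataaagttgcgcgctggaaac
Ndufaf4: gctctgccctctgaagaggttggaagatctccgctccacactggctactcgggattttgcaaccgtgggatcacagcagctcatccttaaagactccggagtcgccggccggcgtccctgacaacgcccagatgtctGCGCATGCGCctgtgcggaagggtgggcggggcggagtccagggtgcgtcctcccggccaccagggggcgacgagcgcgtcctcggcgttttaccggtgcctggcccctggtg
Cox6a1: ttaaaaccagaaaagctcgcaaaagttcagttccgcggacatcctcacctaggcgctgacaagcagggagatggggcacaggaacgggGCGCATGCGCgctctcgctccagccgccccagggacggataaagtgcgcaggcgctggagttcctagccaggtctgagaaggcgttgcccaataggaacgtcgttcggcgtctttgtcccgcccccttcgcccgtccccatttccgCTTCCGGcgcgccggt
Atp5g2: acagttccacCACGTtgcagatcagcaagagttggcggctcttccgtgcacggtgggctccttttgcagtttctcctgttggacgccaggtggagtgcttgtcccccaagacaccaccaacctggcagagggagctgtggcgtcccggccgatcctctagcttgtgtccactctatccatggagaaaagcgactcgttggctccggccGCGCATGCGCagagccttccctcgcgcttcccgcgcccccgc

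The NRF1 letters start 60 bases before the gene start in Ndufa11, 113 in Ndufaf4, 162 in Cox6a1 and 42 in Atp5g2. The Cox6a1 run also holds the ETS letters, read on the opposite strand, 16 bases before the start, and the Atp5g2 run holds the hypoxia core 240 bases before it. The differences of these genes were 0.43 for Ndufa11, -0.35 for Ndufaf4, 0.32 for Cox6a1 and 0.06 for Atp5g2. Over the tested members, the median difference was 0.02 for the 10 with the NRF1 letters and 0.07 for the 59 without, 0.04 and 0.06 with and without the ETS letters (19 and 50 genes), and 0.12 and 0.05 with and without the YY1 letters (7 and 62 genes). With and without the hypoxia core it was 0.04 and 0.09 (17 and 52 genes). These medians are descriptions and carry no test.

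In complex I, 24 of 40 genes had a positive difference and 16 a negative one, with a median of 0.07, and by limma none passed (4 higher and 1 lower before adjustment, at p under 0.05). Of all genes tested, 12.2% were higher and 10.4% lower at that level. The 6 core subunits, among which are carriers of the flavin and the iron-sulfur clusters, ran from -0.11 to 0.52. Ndufs7 (probe set 17235268) encodes the subunit with the last iron-sulfur cluster before ubiquinone. It read 9.42 and 9.66 in shControl against 10.06 and 10.05 in shYTHDF3. Its groups did not overlap, its 2 shYTHDF3 values lay closer together than its 2 shControl values, and its difference of 0.52 was the largest of the 81 (43.2% higher; SE 0.11, limma adjusted p = 0.0741). Over the alternative settings its limma adjusted p ran from 0.00448 with a robust intensity trend to 0.285.

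Ndufs8, whose product lies next to that of Ndufs7 and also carries iron-sulfur clusters, read 8.63 and 8.61 in shControl against 8.88 and 8.81 in shYTHDF3 (difference 0.23, SE 0.09, limma adjusted p = 0.221). Ndufv2, an iron-sulfur subunit of the NADH-oxidising tip, read 9.55 and 9.47 against 9.70 and 9.71. In both genes the shYTHDF3 arrays were the higher pair, as in 28.3% of all genes tested. Both genes were named after their values were seen. The flavin-binding partner Ndufv1 read 8.24 and 8.27 against 8.31 and 8.24, with overlapping groups and a difference of 0.02 (95% interval -0.21 to 0.25). Ndufs1, the largest iron-sulfur subunit, read 9.01 and 8.89 against 8.87 and 8.81, a difference of -0.11 (SE 0.10). Core subunits of the same arm of complex I thus read in both directions, and differences between subunits were not tested.

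Among the 26 accessory subunits of complex I, 16 differences were positive and 10 negative, with a median of 0.07. Ndufa11, a membrane arm subunit whose promoter is printed above, read 8.07 and 8.16 in shControl against 8.56 and 8.54 in shYTHDF3. The groups lay well apart for their spread, at a difference of 0.43 (34.8% higher; SE 0.09, limma adjusted p = 0.0730, and 0.0097 to 0.324 over the alternative settings). Its second, dimmer probe set read 4.25 and 4.34 against 5.01 and 4.03, so there the groups overlapped. Ndufa13, known as GRIM-19, read 8.09 and 7.92 against 8.22 and 8.42 (difference 0.31, SE 0.12, limma adjusted p = 0.198).

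The most negative difference among them was that of Ndufv3, a small subunit of the NADH-oxidising tip, which read 7.72 and 7.56 in shControl against 7.38 and 7.30 in shYTHDF3. It was the only member on the lower side with p under 0.05 before adjustment (difference -0.30, SE 0.10, limma adjusted p = 0.170). Ndufb3 read 6.90 and 6.99 against 6.67 and 6.80, and Ndufa9 read 8.81 and 8.83 against 8.68 and 8.66, at differences of -0.21 and -0.15. In all 3 genes both shYTHDF3 arrays were below both shControl arrays, and none passed. Of all genes tested, 25.7% lay below in this way, and these 3 were named for their large negative differences. Ndufb11 and Ndufs5 were close to the background level (4.17 to 4.58 and 4.15 to 4.48), so little could be read from them.

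The 8 complex I assembly factors, which help to build the complex and are not part of it, ran from -0.35 to 0.47, with 4 positive and 4 negative and a median of -0.02. Their SD was 0.28, against 0.16 for the accessory and 0.23 for the core subunits. Their median standard error was also larger than that of the accessory subunits (0.12 against 0.10). Ndufaf3 and Ndufaf4 encode proteins that bind each other early in assembly. Ndufaf3 (probe set 17531207) read 6.88 and 6.82 in shControl against 7.20 and 7.43 in shYTHDF3 (difference 0.47, SE 0.11, limma adjusted p = 0.0883, and 0.0257 to 0.350 over the alternative settings). Ndufaf4 (17412272) read 8.07 and 7.63 against 7.50 and 7.51 (difference -0.35, SE 0.16, limma adjusted p = 0.260). The partners therefore read in opposite directions, neither past the test, and the contrast between them was not tested. For Ndufaf4 the size rested on shControl replicate 1: without it the difference was -0.13.

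Ndufaf5, whose product hydroxylates the Ndufs7 protein, read 5.76 and 5.40 in shControl against 5.28 and 5.34 in shYTHDF3 (difference -0.27, SE 0.14). Without shControl replicate 1 that difference was -0.10. Ndufaf6 read 6.30 and 6.30 against 6.15 and 6.16, and Ndufaf1 read 7.15 and 7.23 against 7.11 and 7.02. Both thus lay lower in shYTHDF3 by little (-0.14 and -0.12), with groups that did not overlap and no call (limma adjusted p = 0.388 and 0.483). Over all genes tested, 25.7% lay below without overlap.

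**Figure D3:**
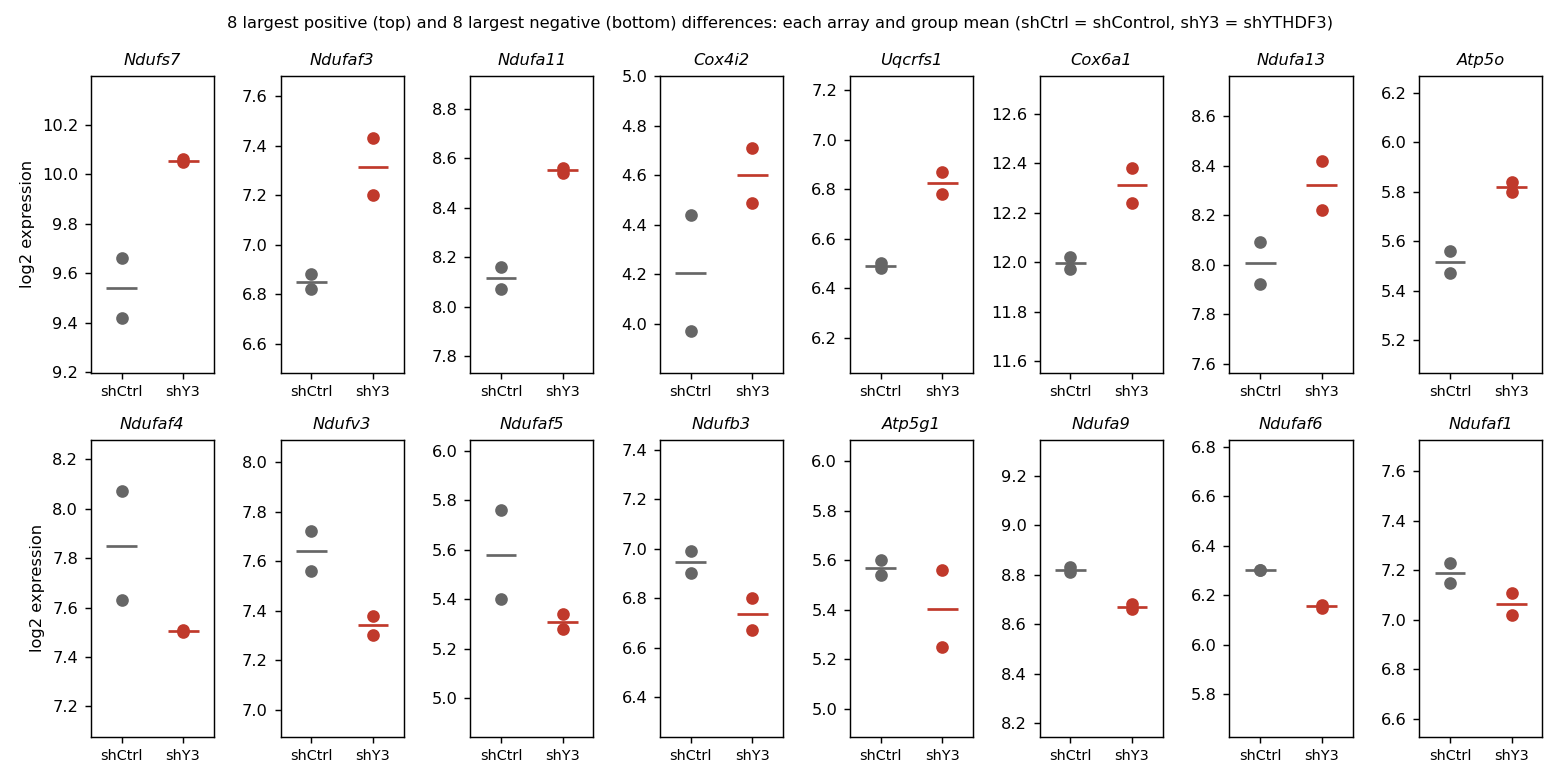
Log2 expression on each array (points) and group means (lines) for the 8 members with the largest positive differences (upper row) and the 8 with the largest negative ones (lower row), each panel spanning the same 1.2 log2 units. The groups overlap only in Atp5g1, and the shControl arrays lie far apart in Cox4i2 (4.44 and 3.97), Ndufaf4 (8.07 and 7.63) and Ndufaf5 (5.76 and 5.40). Members shown were picked by size of difference. Over all genes tested, 28.3% lay above and 25.7% below without overlap.

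Complex II, which has no subunit encoded in mitochondrial DNA, had no difference above 0.10 in size, and its median size was 0.07, against 0.04 in complex III. Sdha, the flavoprotein, read 9.30 and 9.24 in shControl against 9.35 and 9.38 in shYTHDF3, a difference of 0.10 (95% interval -0.13 to 0.32). Sdhb, the iron-sulfur protein, read 7.79 and 7.91 against 7.94 and 7.93 (0.09, interval -0.15 to 0.32). The membrane anchors Sdhc (9.17 and 9.22 against 9.29 and 9.23) and Sdhd (9.15 and 9.23 against 9.20 and 9.26) differed by 0.06 and 0.04. All 4 differences were positive and close to or below their standard errors (0.09 to 0.10), and the lowest limma adjusted p was 0.569.

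In complex III the genes clustered near 0 apart from Uqcrfs1. This gene encodes the Rieske iron-sulfur protein, which takes the first electron from ubiquinol. It read 6.50 and 6.48 in shControl against 6.78 and 6.87 in shYTHDF3, groups that lay apart, at a difference of 0.33 (25.9% higher; SE 0.09, limma adjusted p = 0.119, and 0.0892 to 0.430 over the alternative settings). The core proteins Uqcrc1 (10.17 and 10.14 against 10.25 and 10.06) and Uqcrc2 (10.09 and 10.03 against 10.06 and 9.99) overlapped between the groups, at 0.00 (95% interval -0.26 to 0.26) and -0.04 (-0.27 to 0.19). The sign of Uqcrc2 turned when quantile normalization was applied once more. The 4 smaller subunits Uqcrb, Uqcrh, Uqcrq and Uqcr11 ran from -0.03 to 0.11, each with overlapping groups. The naming rule does not take Cyc1, the cytochrome c1 gene of complex III. Cyc1 read 8.04 and 8.12 in shControl against 8.08 and 7.89 in shYTHDF3 (-0.09), with overlapping groups.

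Complex IV had 9 positive and 4 negative differences among its 13 tested genes, a median of 0.07 and none past the limma test (1 higher and 0 lower before adjustment, at p under 0.05). At that level 12.2% of all genes were higher and 10.4% lower. Cox6a1, the isoform of subunit VIa found in most tissues, read 11.97 and 12.02 in shControl against 12.38 and 12.24 in shYTHDF3, with both shYTHDF3 arrays higher (difference 0.32, 24.4% higher; SE 0.10, limma adjusted p = 0.144, and 0.00991 to 0.427 over the alternative settings). Cox8a read 10.30 on both shControl arrays and 10.62 and 10.44 in shYTHDF3 (0.23, SE 0.10). Ndufa4 read 10.76 and 10.77 against 11.03 and 10.90 (0.20, SE 0.10). None of these genes was called. Cox8a was named after its value was seen, and 4 of the 13 tested genes of complex IV had negative differences.

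The subunits Cox4i1 and Cox5a, which lie close to the catalytic core, hardly differed. Cox4i1, the common isoform of subunit IV, read 9.25 and 9.22 against 9.25 and 9.29 (0.04, 95% interval -0.18 to 0.26). Cox5a read 9.07 on both shControl arrays and 9.01 and 9.03 in shYTHDF3 (-0.05, interval -0.27 to 0.17). Cox5b gave opposite signs on its 2 probe sets, -0.08 on the brighter and 0.15 on the dimmer. Cox7a2 read 8.46 and 8.75 against 8.59 and 8.72 (0.05), and Cox7a2l read 7.19 and 7.29 against 7.37 and 7.42 (0.15, SE 0.09). Cox7c lay at the background level (4.26 to 4.33) and Cox7b varied within both groups (9.36 and 9.03 against 8.87 and 9.32).

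Of the 8 isoforms of complex IV known from particular tissues or from low oxygen, 6 were below background, and Cox4i2 and Cox7a1 were tested. Cox4i2, an isoform of subunit IV linked to low oxygen, read 4.44 and 3.97 in shControl against 4.71 and 4.49 in shYTHDF3. Its shControl mean of 4.20 lay under the background of 4.28, so of its difference of 0.39 (SE 0.17, limma adjusted p = 0.255) only about 0.31 lay above that level, and the difference was 0.16 without shControl replicate 2 and 0.62 without shControl replicate 1. Ndufa4l2, a hypoxia-induced paralog of Ndufa4, read 3.42 and 3.71 against 3.84 and 3.66 and was below background in both groups. The heart and muscle isoform Cox6a2 read 4.15 and 4.26 against 3.81 and 3.49, also below it. The muscle isoform Cox7a1 lay above background on all 4 arrays and read 4.83 and 4.71 against 4.78 and 4.91, with overlapping groups. Of the 5 muscle markers, Acta1 and Ckm were above background, without a call (differences of -0.36 and -0.21), and Myh6, Myh7 and Actc1 were not.

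In ATP synthase, 11 of 17 tested genes had a positive difference and 6 a negative one, with a median of 0.04; that median was -0.020 without shControl replicate 2. By limma none passed (2 higher and 0 lower before adjustment, at p under 0.05, where all genes gave 12.2% higher and 10.4% lower). The catalytic F1 part gave small differences in its largest subunits. Atp5a1, the alpha subunit, read 11.13 and 11.30 in shControl against 11.30 and 11.26 in shYTHDF3 (0.06, 95% interval -0.19 to 0.32). Atp5b, the catalytic beta subunit, read 11.72 and 11.78 against 11.92 and 11.82 (0.12, interval -0.11 to 0.36). Atp5c1, the gamma subunit of the rotating shaft, read 6.85 and 6.75 against 6.71 and 6.72 (-0.08). The alpha groups overlapped. The beta and gamma groups did not, but each of these 2 differences had a standard error of 0.09. Over all genes tested, 28.3% lay above and 25.7% below without overlap. The contrast between beta and gamma was not tested.

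Atp5d, the delta subunit at the foot of the shaft, had the largest F1 difference. It read 7.52 and 7.67 in shControl against 7.86 and 7.87 in shYTHDF3 (0.27, SE 0.10, limma adjusted p = 0.192), and its second probe set differed by 0.26. Of the outer stalk, which holds F1 still, Atp5o (the oligomycin sensitivity protein) read 5.47 and 5.56 against 5.80 and 5.84. That difference of 0.31 was the largest of complex V (23.7% higher; SE 0.09, limma adjusted p = 0.139), and the groups did not overlap. The other stalk genes, Atp5h, Atp5j and Atp5pb, differed by 0.11, 0.12 and 0.01. The dimmer probe set of Atp5h differed by 0.35, at a mean level of 5.43 against 11.71 on the brighter, so the probe sets of this gene did not give 1 size.

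Atp5g1, Atp5g2 and Atp5g3 all encode subunit c of the membrane ring, with the same mature protein and different import sequences. Atp5g1 read 5.54 and 5.60 in shControl against 5.56 and 5.25 in shYTHDF3 (-0.17), Atp5g2 read 11.37 and 11.40 against 11.54 and 11.36 (0.06, and 0.08 on its second probe set), and Atp5g3 read 9.22 and 9.17 against 9.20 and 8.97 (-0.11). The groups overlapped in all 3. The remaining membrane-part genes, Atp5j2, Atp5k, Atp5l, Atp5md and Atp5mpl, ran from -0.09 to 0.13.

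**Figure D4:**
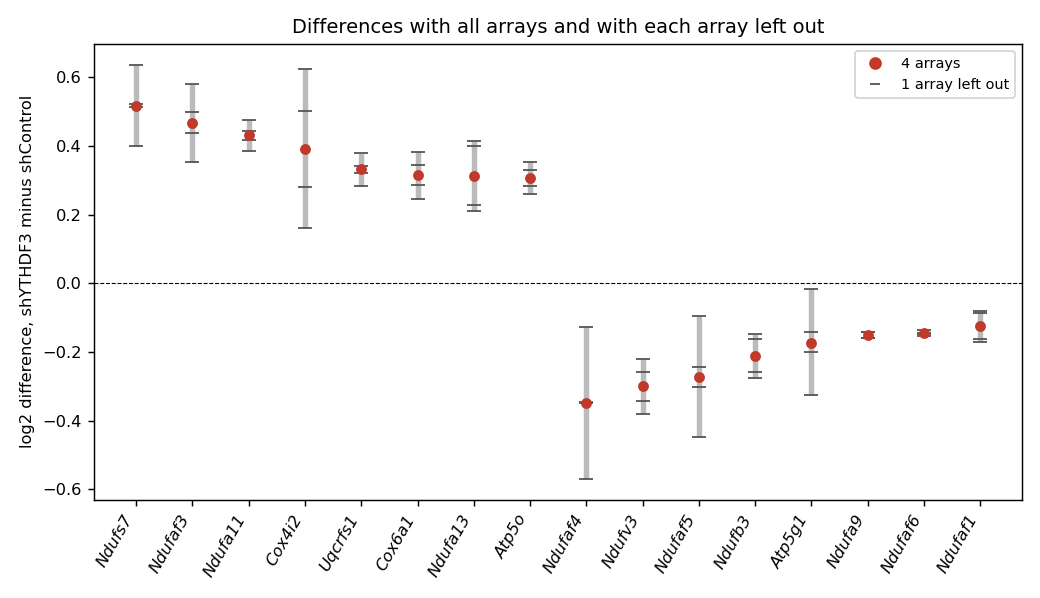
Log2 difference, shYTHDF3 minus shControl, for the same 16 members with all 4 arrays (red points) and with each array left out (dashes; grey bars span them). The bars are widest for Cox4i2 (0.16 to 0.62), Ndufaf4 (-0.57 to -0.13) and Ndufaf5 (-0.45 to -0.10); where groups do not overlap, leaving out an array cannot turn the sign.

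Of the 9 members with a second probe set, 8 gave the same sign on both and Cox5b did not. Many of these genes have near-identical processed copies in the genome, and a probe set can then read more than its named gene.

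Genes outside the naming rule that work with these complexes were taken as a list of electron carriers, assembly factors and the ATP synthase inhibitor. Of 38 tested, limma called 1 lower and 0 higher (4 higher and 6 lower before adjustment, at p under 0.05), with a median difference of -0.06. Over all genes tested, 2.73% were called, and before adjustment 12.2% were higher and 10.4% lower at that level. The 1 call was Sdhaf4, an assembly factor that binds the flavoprotein of complex II. It read 5.55 and 5.20 in shControl against 4.49 and 4.45 in shYTHDF3, both shYTHDF3 arrays being the lower pair, and it fell by 0.90 (SE 0.14, limma adjusted p = 0.0387). Its shYTHDF3 values lay close to the background level of 4.28, so the size of the fall is uncertain. The Sdhaf4 call was lost when dim probe sets were kept (limma adjusted p = 0.0898) and with same-numbered arrays treated as pairs (limma adjusted p = 0.0758). It was also lost without any 1 of the 4 arrays, where the difference ran from -1.08 to -0.73. The 4 complex II subunit genes differed by no more than 0.10. Chosen after their values were seen, Cox20, a factor for subunit II of complex IV, differed by 0.57, and Higd2a and Higd1a, related genes of complex IV assembly, by 0.41 and -0.54. None of these 3 passed (limma adjusted p = 0.0705, 0.0871 and 0.0835).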

How the data were processed

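The values deposited by the authors are 1 log2 number per probe set and array, and RMA is the method named in the submitters' processing notes; the sources used here name neither the RMA software nor the log base, and log2 was inferred from the range of the values. RMA makes the distributions of arrays alike, so a shift of most genes one way would not be seen. Of 41345 probe sets, 23521 had 1 gene symbol, 1814 several and 16010 none, and 23328 of the 23521 took their name from RefSeq by Entrez identifier. Where a gene had several probe sets, the brightest by mean was used. Genes with a mean above log2 4.28, the 95th percentile of 1108 olfactory receptor probe sets, were tested (13056 of 22180).

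Groups were compared with limma 3.58.1 (lmFit, eBayes) in R 4.3.3 (two-sided). P-values were adjusted over all genes tested (Benjamini-Hochberg), with a threshold of 0.05; 95% intervals use the moderated error. The step was tested on 10 simulated sets of 13056 genes, 200 changed: it recovered 5% of changes of log2 0.5, 79.6% of log2 1 and 98.8% of log2 2. In these sets, differences of the size found here were mostly out of its reach. The data gave 356 calls, more than the 200 genes changed in the simulation, so recovery in the data may differ. The members and lists were chosen with earlier results of these data known. Named with values were all calls, the 8 largest positive and negative differences, 27 genes set by role and members whose probe sets disagree in sign; other members named here were added after their values were seen. Of the related lists, calls or the 2 largest differences are named. Alternatives were other filters, variance models, normalizations and probe set rules, the replicate block and each array left out. The number of arrays limits the precision. Figures used matplotlib 3.10.9.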

Additional observations from a re-analysis of the deposited data

How the results depend on the processing

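The count of members called was 0 by limma and also under the settings not named here; it was 4 with an intensity trend and 4 with that trend and robust estimation. Over all genes the count of 356 became 43 without the filter, 1426 and 1465 with the trend without and with robust estimation, 51 with the replicate block, and 0 to 12 with 1 array left out. The titles number the arrays 1 and 2 in both groups, but same-numbered arrays did not deviate together (correlation -0.066 over 13056 genes); the replicate block changed no member's call, and with it the calls of Ythdf3, Sdhaf4 and Suclg1 were lost (limma adjusted p = 0.0758, 0.0758 and 0.0692). With 1 array left out, the complex I, III and IV medians ran from 0.029 to 0.135, -0.053 to 0.077 and 0.016 to 0.131. The complex II median of 0.07 ran from 0.031 to 0.087 and the complex V median of 0.04 from -0.02 to 0.062 likewise. Of 36 named members tested, Cox5b turned to 0.033 with the mean of its probe sets and Uqcrc2 to 0.007 with quantile normalization once more. Leaving out 1 array, signs turned in Atp5a1 (-0.019 to 0.148), Atp5g2 (-0.025 to 0.153), Atp5g3 (-0.228 to 0.003), Cox5b (-0.166 to 0.006), Cox7a2 (-0.093 to 0.198), Ndufv1 (-0.017 to 0.057) and Uqcrc1 (-0.093 to 0.094). The cause was not tested. A fit without 1 array has fewer residual degrees of freedom, and the lone array is assumed to vary like those of the other group.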

Other observations

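Enzymes of the tricarboxylic acid cycle and of pyruvate entry, which supply the chain with electrons, were measured as a list of 20 tested genes with a median difference of -0.03, and limma called 1 lower and 0 higher (2 higher and 3 lower before adjustment, at p under 0.05). The shares over all genes tested were 2.73% called, and 12.2% higher and 10.4% lower before adjustment. Suclg1, the alpha subunit of succinyl-CoA synthetase, read 7.77 and 7.63 in shControl against 6.87 on both shYTHDF3 arrays and fell by 0.84 (SE 0.10, limma adjusted p = 0.0264). The call was lost when dim probe sets were kept (limma adjusted p = 0.0667) and with same-numbered arrays treated as pairs (limma adjusted p = 0.0692). It was also lost without any 1 of the 4 arrays, where the difference ran from -0.91 to -0.76. Its beta subunit genes Sucla2 and Suclg2, named here after their values were seen, differed by 0.03 and -0.16.

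Regulators of mitochondrial biogenesis and of mitochondrial DNA expression gave no call among 17 tested genes by limma (2 higher and 1 lower before adjustment, at p under 0.05), with a median of 0.00. All genes tested again gave 2.73% called, and 12.2% higher and 10.4% lower before adjustment. The largest differences were those of Polg, the mitochondrial DNA polymerase, at 0.33 (limma adjusted p = 0.109), and Twnk, the mitochondrial helicase, at -0.25 (limma adjusted p = 0.181). Ppargc1a, the coactivator PGC-1 alpha, was below background on all 4 arrays (2.97 to 3.14).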
